A study of Danio rerio with 3 samples.

Results

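The 10 genes described here are cytosolic chaperones of the HSP90 and HSP70 families with their close partners, read in whole zebrafish embryos after exposure to Aroclor 1254. They were chosen by symbol (hsp90aa1.1, hsp90aa1.2, hsp90ab1, hspa8, hsp70l, hspa4a, hspd1, hspe1, dnajb1b and hsf1), and all 10 were found among the 14462 genes of the array's probe table. The set is wider than a cytosolic label says, since hspd1 and hspe1 encode the mitochondrial chaperonin and hsf1 encodes a transcription factor. Aroclor 1254 is a technical product made of many polychlorinated biphenyls. Exposed embryos received 71.9 mg/L of it for 24 h, starting at 24 hpf (hours post fertilization). Control embryos were kept in fish medium at 28.5 °C, and no solvent is named for either group. Whole embryos of 48 hpf were the source of RNA in both groups, and a strain is not given in the sources used here. Each of 3 samples is a two-channel array on which exposed and control RNA are compared, so the contrast lies inside each value and the 3 samples form 1 group. They are labelled biological replicates, but nothing names the clutches they came from. The p-values therefore rest on the spread between these 3 samples, and in limma also on spread borrowed from other genes.

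HSP90 and HSP70 are ATP-driven chaperones that help other proteins fold and keep many kinases, receptors and muscle myosin in a working state. HSP70 takes up unfolded chains with the help of J-domain partners and nucleotide exchange factors, and passes some of them to HSP90 through adaptor proteins. When unfolded proteins accumulate, the heat shock factor HSF1 is released from these chaperones and switches on the inducible chaperone genes, whereas hspa8 and hsp90ab1 are made constantly in most cells. In zebrafish, hsp90aa1.1 is expressed in developing skeletal muscle, where it serves the folding of myosin together with the co-chaperone Unc45b. The inducible hsp70l is also expressed in the embryonic lens without heat.

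All values are log2 ratios as deposited, for single probes or for genes as the mean over a gene's probes in each sample. The sources used here do not state which condition was the numerator, so "negative" and "positive" describe the deposited sign and no direction of exposure is stated. For reference, cyp1a, a cytochrome P450 that is the standard marker of exposure to dioxin-like biphenyls, had positive log2 ratios of 7.07, 8.61 and 8.02 in replicates 1, 2 and 3. Over the 10200 rows measured in all samples, the log2 ratios had an SD between 0.62 in replicate 3 and 0.97 in replicate 2. The sample medians lay between -0.04 and 0.01. Over these rows, Pearson r was 0.30 for replicates 1 and 2, 0.49 for 1 and 3, and 0.33 for 2 and 3. Signal levels behind the ratios were not analysed here, and precision is limited by having 3 arrays. Gene names rest on a pairing of rows with probes by grid position that was inferred from the values. With that pairing, the mean log2 ratios of 2169 pairs of probes for 1 gene had a Pearson r of 0.76 across pairs, against 0.025 over 440 pairs with the row numbers taken as given. Because the pairing came from these same values, the higher r is not an independent check of the gene names. Markers of muscle, lens, blood and nervous system all had values, for 15 of 16, 10 of 10, 5 of 5 and 5 of 5 genes on the array. A value shows only that a ratio was deposited, and signal above background from these tissues was not tested.

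A value was present for 18 of the 20 probes of the chaperone genes (90%), compared with 45.4% of all 21060 probes that name a gene. The probes without a value were 1 of 2 for hspd1 and 1 of 2 for hsf1. All 10 genes had a value in every sample and were tested. The mean log2 ratio ranged from -2.43 for hsp90aa1.1 to 0.88 for hsp90ab1, with a median of -0.45 beside -0.03 over all 5904 genes tested. Of the 10 means, 8 were negative, those of all genes but hsp90ab1 and hsf1, where 52.7% of all genes had a negative mean. Negative values in all 3 samples were found for 4 genes, hsp90aa1.2, hspa4a, hspd1 and hspa8, where 23.1% of all genes were negative throughout. Positive values in all 3 were found for hsp90ab1 and hsf1, where 19.7% of all genes were. That makes 6 of 10 with the same sign in every sample, beside 42.8% of all genes, and the other 4 had mixed signs.

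None of the 10 genes passed an adjusted p of 0.05 in limma (Benjamini-Hochberg over all genes). Of all genes 0.0169% passed, which is cyp1a alone. At an unadjusted limma p of 0.05 there were 5 of 10, beside 16.1% of all genes. They were hsp90aa1.1, hsp90aa1.2, hspa4a and hspd1 with negative means (8.43% of all genes) and hsp90ab1 with a positive mean (7.67% of all genes). Of 17 single probes of these genes with a value in all samples, 0 passed an adjusted p of 0.05 over all rows in limma and 7 an unadjusted one, beside 0.0686% and 18.9% of all rows. With the ordinary statistic, which borrows no spread from other genes, 0 passed after adjustment. At an unadjusted p of 0.05 there were 2 of 10, beside 10.2% of all genes. They were hsp90ab1 and hsf1, both with positive means. By this statistic hsp90aa1.1, hsp90aa1.2, hspa4a and hspd1 were not among them, so their unadjusted limma p under 0.05 depended on spread borrowed from other genes. The replicates differed in how far they stood from 0. Replicate 1 was the lowest of the 3 in each of the 8 genes with a negative mean, and in 37.3% of the 3113 such genes on the array. The median over the 10 genes was -1.05, -0.36 and 0.07 in replicates 1, 2 and 3. Computed on gene means, the median of -0.45 was -0.22 without replicate 1 and -0.70 without replicate 3.

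**Figure D1:**
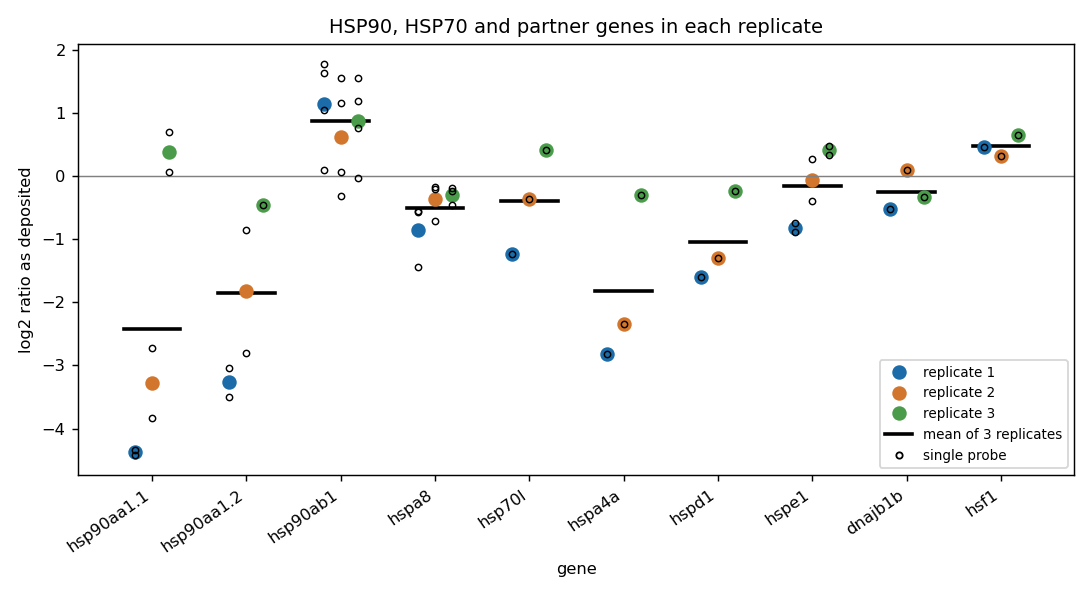
Log2 ratio as deposited (vertical axis) of the 10 chaperone genes (horizontal axis) in replicates 1 (blue), 2 (orange) and 3 (green). Filled points are gene values, open circles single probes and bars the mean of 3 replicates; hsp90ab1 and hsf1 lie above 0 in every sample, while hsp90aa1.1 lies at -4.38, -3.28 and 0.38.

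The mean log2 ratios of the cytosolic HSP90 genes lay on opposite sides of 0, positive for hsp90ab1 and negative for both hsp90aa1 copies. The constitutive gene hsp90ab1 (HSP90 beta, gene ID 30573) had log2 ratios of 1.14, 0.62 and 0.88 in replicates 1, 2 and 3. All 3 samples were positive and close to each other. The mean was 0.88 ± 0.26 (SD, n = 3; 1.84-fold), with a 95% confidence interval of 0.28 to 1.47 (adjusted p = 0.206, limma). All intervals given are 95% intervals from limma, which borrows spread from other genes or rows, so they do not follow from the SD alone. Of the 10 genes, it alone was past 1.5-fold in the same direction in every sample, which 2.63% of all genes were with a positive sign and 2.71% with a negative sign.

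Its 4 probes did not give the same size. The probe with the highest mean read 1.63, 1.55 and 1.56 in the 3 samples (1.58 ± 0.04; SD, n = 3), with an adjusted p of 0.0846 over all rows in limma. The next read 1.78, 1.15 and 1.19. A further probe read 1.05, 0.07 and 0.77, and the last read 0.09, -0.31 and -0.02, with an interval of -0.69 to 0.53. So 3 probes were positive in every sample and the remaining probe lay around 0. All 4 carry the same transcript accession in the probe table. Without replicate 2, the first of these probes passed over all rows (mean 1.60, adjusted p = 0.0432, limma), in a fit that called 186 of 11852 rows.

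The HSP90 alpha gene hsp90aa1.1 (gene ID 30591), the muscle form, had log2 ratios of -4.38, -3.28 and 0.38. Replicates 1 and 2 were far below 0 and replicate 3 was slightly above it. Among 5904 genes, counted from the most negative, it ranked 6 in replicate 1, 11 in replicate 2 and 4878 in replicate 3. Both of its probes showed this split, 1 at -4.33, -2.73 and 0.07 and the other at -4.42, -3.84 and 0.69. The mean was -2.43 ± 2.49 (SD, n = 3), with a 95% confidence interval of -4.41 to -0.44 (adjusted p = 0.244, limma). With the ordinary statistic the adjusted p was 0.579. By that statistic hsp90aa1.1, hsp90aa1.2, hspa4a and hspd1 had no unadjusted p under 0.05, so intervals from their own spread would include 0. Without replicate 3 the mean was -3.83 with an adjusted p of 0.0286 in limma, in a fit that called 20 of 5963 genes. Without replicate 1 it was -1.45 (adjusted p = 0.540, limma), and with array weights -1.40 (adjusted p = 0.391, limma). The array weights were 0.99, 0.47 and 2.15 for replicates 1, 2 and 3, so replicate 3 weighed the most. Signs that are negative in replicates 1 and 2 and positive in replicate 3 were seen in 7.76% of all genes.

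Its tandem neighbour hsp90aa1.2 (gene ID 565155), which lies next to it in the RefSeq gene table, was negative in every sample, at -3.27, -1.83 and -0.45. Replicate 1 was the lowest and replicate 3 the nearest to 0. The mean was -1.85 ± 1.41 (SD, n = 3; 3.6-fold in size), with an interval of -3.06 to -0.64 and an adjusted p of 0.198 in limma. Of its probes, 1 read -3.04 and -2.80 and had no value in replicate 3, and the other read -3.50, -0.85 and -0.45, so the gene value of replicate 3 comes from a single probe. From that probe alone the mean was -1.60. Without replicate 1 the gene mean was -1.14 (adjusted p = 0.444, limma). The alpha copies are close relatives, and whether their probes share signal was not tested.

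**Figure D2:**
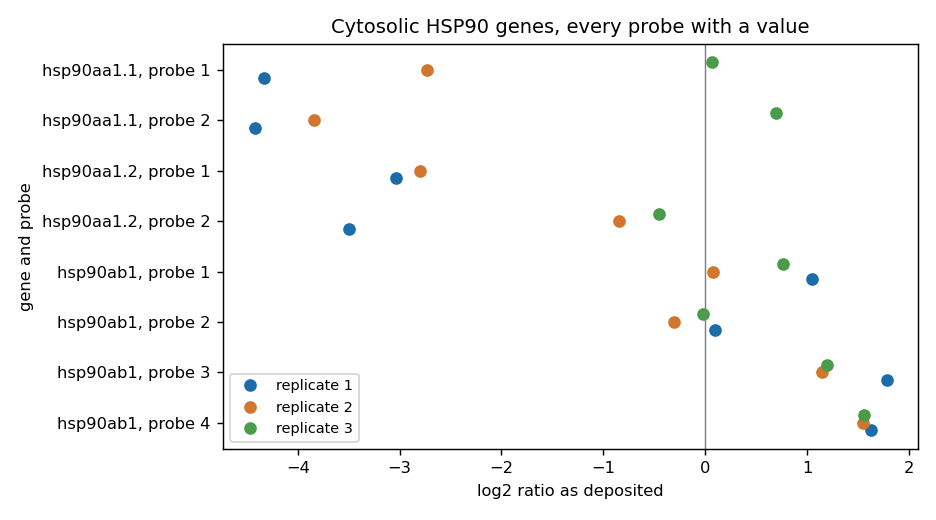
Log2 ratio as deposited (horizontal axis) of each probe with a value (vertical axis) for the 3 cytosolic HSP90 genes in replicates 1 (blue), 2 (orange) and 3 (green). Both hsp90aa1.1 probes lie below -2.7 in replicates 1 and 2 and above 0 in replicate 3, and 3 of the 4 hsp90ab1 probes are positive in all samples.

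Within a sample, the alpha and beta forms can be compared without knowing the numerator, because the same array gives both ratios. The log2 ratio of hsp90aa1.1 minus that of hsp90ab1 was -5.52, -3.90 and -0.49 in replicates 1, 2 and 3, a mean difference of -3.30 ± 2.56 (SD, n = 3). For hsp90aa1.2 the difference from hsp90ab1 was -4.41, -2.44 and -1.33, with a mean of -2.73 ± 1.56 (SD, n = 3). Both differences had the same sign in 3 of 3 samples. The exact sign-flip permutation test gave a 2-sided p of 0.25 for each, which is the smallest that 3 samples allow, so neither can pass 0.05 by this test.

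The muscle chaperones around myosin were read beside the alpha genes. The co-chaperone unc45b, a myosin-specific partner of HSP90, had log2 ratios of -3.75, -1.61 and -0.51, all negative, and a mean of -1.96 ± 1.64 (SD, n = 3; adjusted p = 0.212, limma). Its values were close to those of hsp90aa1.2 in each sample, where hsp90aa1.2 minus unc45b was 0.48, -0.22 and 0.06. This pair was chosen after the values were seen. The methyltransferase smyd1b, which also takes part in building myofibrils, read -1.45, -0.83 and 0.03. For each of hsp90aa1.1, hsp90aa1.2, unc45b and smyd1b, replicate 1 was the lowest and replicate 3 the highest. This order was not particular to them. It was also seen in hspa8, hsp70l, hspa4a, hspd1 and hspe1, and in the co-chaperones fkbp5, fkbp4, ptges3a, ptges3b, ppid and sugt1. The chaperone genes hsp90ab1, dnajb1b and hsf1 did not have this order. Nor did the co-chaperones stip1, cdc37, ppp5c, ahsa1a and chordc1b. The share of this order over all genes was not counted.

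Skeletal muscle markers in general did not share that size. Over 15 measured markers the median log2 ratio was -0.32, -0.18 and 0.12 in replicates 1, 2 and 3. Without unc45b and smyd1b it was -0.21, -0.10 and 0.17 over 13. Of the 15, 3 were negative throughout and 1 was positive throughout, beside 23.1% and 19.7% of all genes. The actin gene actc1b stood at 0.05 ± 0.14 and the creatine kinase ckma at -0.09 ± 0.26 (SD, n = 3 each). The troponin tnnt3b was at -1.51 ± 0.33 and desmin (desma) at 1.30 ± 0.66, on opposite sides of 0. In whole embryos, a difference in the number of muscle cells and one in RNA per cell cannot be told apart. The markers are given as a description, and the part of the muscle share in the hsp90aa1.1 value was not tested.

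**Figure D3:**
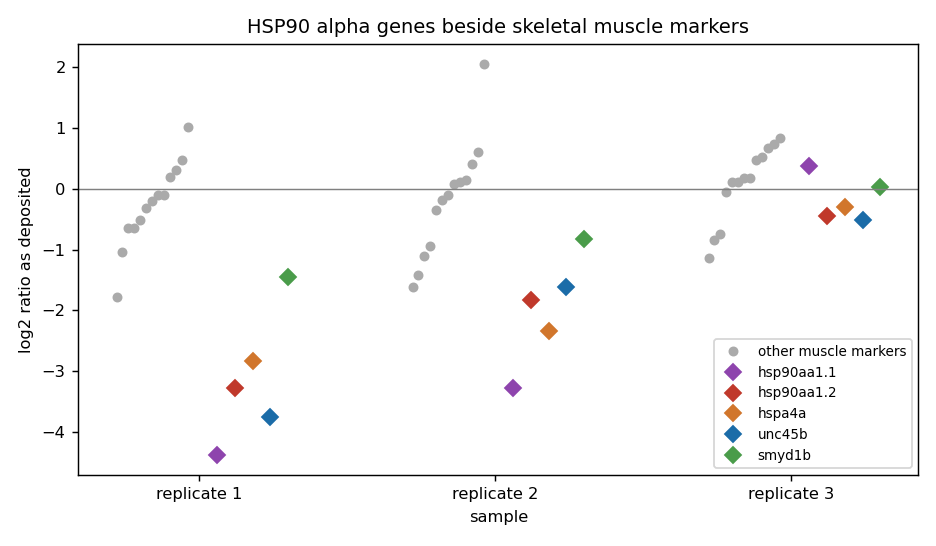
Log2 ratio as deposited (vertical axis) in each replicate (horizontal axis) for hsp90aa1.1, hsp90aa1.2, hspa4a, unc45b and smyd1b (diamonds) and 13 other skeletal muscle markers (grey points, sorted by value). In replicate 1 the diamonds of hsp90aa1.1, hsp90aa1.2, hspa4a and unc45b lie below every grey point, and in replicate 3 all 5 diamonds lie within the grey range.

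The HSP70 genes hspa8 and hsp70l had negative means of smaller size than the hsp90aa1 copies. Their relative hspa4a, at a mean of -1.82, was close to hsp90aa1.2 at -1.85. The constitutive hspa8 (gene ID 573376), the main cytosolic HSC70, was negative in all samples at -0.86, -0.36 and -0.30. The mean was -0.50 ± 0.31 (SD, n = 3), with an interval of -1.11 to 0.10 and an adjusted p of 0.365 in limma. All 3 of its probes were negative in every sample, with means between -0.63 and -0.31. One of them read -1.44 in replicate 1, below the other values of the gene.

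The heat-inducible hsp70l (gene ID 560210), with a single probe, had log2 ratios of -1.24, -0.36 and 0.41. The samples fell on both sides of 0. The mean was -0.39 ± 0.82 (SD, n = 3), with an interval of -1.23 to 0.45 (adjusted p = 0.582, limma), and it was 0.03 without replicate 1. The inducible copies hsp70.1, hsp70.2 and hsp70.3 were not found by symbol in the probe table, the 1 probe of hspa1b had no value, and whether the hsp70l probe also reads their RNA was not tested. Lens markers, from a tissue that expresses hsp70l, had medians of 1.45, -0.65 and -0.38 over 10 genes, highest in replicate 1, where hsp70l was lowest, and their part in the value was not tested.

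The gene hspa4a (gene ID 335865) encodes an HSP110-type relative that acts as a nucleotide exchange factor for HSP70. Its single probe had log2 ratios of -2.83, -2.34 and -0.31, negative in every sample, with replicates 1 and 2 well apart from replicate 3. It ranked 18, 52 and 1631 from the most negative of 5904 genes in replicates 1, 2 and 3. The mean was -1.82 ± 1.34 (SD, n = 3; 3.54-fold in size), with an interval of -2.98 to -0.66 and an adjusted p of 0.195 in limma. Without replicate 3 the mean was -2.58 with an adjusted p of 0.0469 in limma, in the fit that called 20 of 5963 genes. Without replicate 1 it was -1.32 (adjusted p = 0.445, limma), and with array weights -1.26 (adjusted p = 0.224, limma). The related hspa4l was negative in all samples too, at -1.44, -0.84 and -1.32 (mean -1.20 ± 0.32; SD, n = 3; adjusted p = 0.163, limma). The paralogue hspa4b read 0.16, -0.62 and -0.20. The log2 ratio of hspa4a minus that of hspa4b was -2.98, -1.72 and -0.11, lower in 3 of 3 samples.

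The mitochondrial chaperonin genes hspd1 and hspe1, which encode the HSP60 barrel and its HSP10 lid, are neighbours in the RefSeq gene table. The measured probe of hspd1 (gene ID 282676) had log2 ratios of -1.60, -1.30 and -0.24, negative in every sample. The mean was -1.05 ± 0.72 (SD, n = 3; 2.07-fold in size), with an interval of -1.83 to -0.27 and an adjusted p of 0.221 in limma. For hspe1 (gene ID 58041) the gene values were -0.81, -0.06 and 0.41, on both sides of 0, with a mean of -0.16 ± 0.62 (SD, n = 3; adjusted p = 0.816, limma). Its probes read -0.74, -0.39 and 0.34, and -0.89, 0.27 and 0.48. The hspd1 ratio was below the hspe1 ratio in 3 of 3 samples, with differences of -0.79, -1.24 and -0.65 and a mean difference of -0.89 ± 0.31 (SD, n = 3).

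The J-domain gene dnajb1b (gene ID 327244), the zebrafish counterpart of the HSP40 that works with cytosolic HSP70, had log2 ratios of -0.52, 0.10 and -0.33 (mean -0.25 ± 0.32; SD, n = 3; interval -0.86 to 0.36; adjusted p = 0.638, limma). Its paralogue dnajb1a was negative in all samples, at -0.93, -1.20 and -0.40 (mean -0.84 ± 0.41; SD, n = 3; adjusted p = 0.223, limma). The dnajb1b ratio was the higher in 3 of 3 samples. The pairs hspa4a with hspa4b, hspd1 with hspe1 and dnajb1b with dnajb1a were set against each other after their values were seen. With 3 samples an exact sign-flip test cannot go below 0.25. Other pairs of relatives compared in the same way had mixed signs. In replicates 1, 2 and 3, hspa4a minus hspa4l was -1.38, -1.50 and 1.01. For hsp90aa1.1 minus hsp90aa1.2 it was -1.11, -1.46 and 0.84, and for hsp70l minus hspa8 -0.378, 0.00558 and 0.706.

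The transcription factor gene hsf1 (gene ID 58123) was positive in every sample, at 0.46, 0.32 and 0.66. The mean was 0.48 ± 0.17 (SD, n = 3; 1.39-fold), with an interval of -0.09 to 1.05 and an adjusted p of 0.364 in limma. Its other probe had no value. The related hsf2 read 0.35, -0.05 and 0.15, and hsbp1b, a heat shock factor binding protein, read 0.60, 0.42 and -0.08. Both related genes had mixed signs, and hsf4 and hsf5 had no value.

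The HSP90 co-chaperones were mostly negative. Of 12 measured genes, 7 had negative values and 0 had positive values throughout, beside 23.1% and 19.7% of all genes. The median log2 ratio was -0.67, beside -0.03 over all genes. None passed after adjustment, and 5 were negative with an unadjusted limma p under 0.05, where 8.43% of all genes were. The 5 were fkbp5, unc45b, fkbp4, ptges3a and ppid. The immunophilin fkbp5, which tunes the glucocorticoid receptor on HSP90, had the most negative mean of all 5904 genes, -3.82 ± 1.64 (SD, n = 3; adjusted p = 0.116, limma), and it read -5.69, -3.10 and -2.66. Its relative fkbp4 read -1.33, -0.87 and -0.36, with a mean of -0.85 ± 0.48 (SD, n = 3).

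The p23 gene ptges3a, which holds HSP90 in its closed state, read -1.61, -0.97 and 0.02. The adaptor stip1 (HOP), which links HSP70 to HSP90, read -1.17, -0.26 and -0.52. By contrast, chordc1b read 0.06, -0.10 and 0.28, and the ATPase activator ahsa1a read 0.24, -0.65 and -0.14. Replicate 3 was nearest to 0 in 8 of the 12 co-chaperones, where 48.5% of all genes had it so. The other 5 co-chaperones on the array had no value.

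Among 18 measured HSP70 relatives and partners, 11 had negative values and 1 had positive values throughout, beside 23.1% and 19.7% of all genes, with a median of -0.47. None passed after adjustment, and 7 were negative with an unadjusted limma p under 0.05, beside 8.43% of all genes. The 4 with the smallest p were hspa4l and dnajb1a, given above, with dnajc2 and hspa14. The genes dnajc2 and hspa14 encode partners in a chaperone pair that in human cells binds nascent chains at the ribosome. They stood at -1.30 ± 0.58 and -0.98 ± 0.17 (SD, n = 3 each), with adjusted p of 0.177 and 0.189 in limma, and both were negative in every sample. The gene positive in all samples was bag3, a nucleotide exchange factor induced by heat, at 0.02, 0.85 and 0.49. The co-chaperones st13 and dnajc7 were negative in all samples, with means of -0.44 ± 0.21 and -0.49 ± 0.24 (SD, n = 3 each).

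Chaperone and quality control genes of other cell compartments had negative means in 7 of 7 tested, beside 52.7% of all genes. Of this organelle chaperone list, 5 had negative values throughout, beside 23.1% of all genes. The median was -0.74, and none passed after adjustment. A further gene of the list, dnaja3b, had a value in replicate 1 only, at 0.76. The endoplasmic reticulum forms of HSP70 and HSP90, hspa5 and hsp90b1, stood at -1.35 ± 0.51 and -1.27 ± 0.96 (SD, n = 3 each). The mitochondrial HSP70 gene hspa9, the partner of the chaperonin pair, read -1.15, -0.51 and -0.52. The mitochondrial HSP90 gene trap1 read -1.41, -1.78 and 0.95, with the same signs as hsp90aa1.1. The protease gene clpp, a member of the mitochondrial quality control system, was at -1.21 ± 0.60 (SD, n = 3). Across the 5 HSP90 genes of the array, hsp90ab1 was therefore the only one with a positive mean.

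Heat-inducible genes of other families showed no shared sign. Of 5 measured in all samples, 0 had negative values throughout and 1 had positive values throughout, beside 23.1% and 19.7% of all genes. Their median was -0.05. The positive gene was the autophagy receptor sqstm1, at 0.04, 2.49 and 0.85, a wide spread. The collagen chaperone serpinh1b (HSP47) read -0.73, -1.15 and 0.07, the ubiquitin gene ubb -1.01, -1.12 and 0.28, and the small heat shock gene hspb1 -0.48, -0.54 and 0.85. These 3 genes shared the signs of hsp90aa1.1, which 7.76% of all genes had. The same signs were not particular to this list. They were seen in 3 of the 10 chaperone genes (hsp90aa1.1, hsp70l and hspe1) and 2 of 7 organelle chaperones. Among HSP90 co-chaperones 1 of 12 had them, among HSP70 relatives and partners 2 of 18, and among skeletal muscle markers 3 of 15. The remaining gene measured in all samples, hspb8, did not share them, at 0.09, -0.42 and 0.57. A further gene of the list, atf3, read -0.12 in replicate 1 and 0.62 in replicate 3 and had no value in replicate 2.

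**Figure D4:**
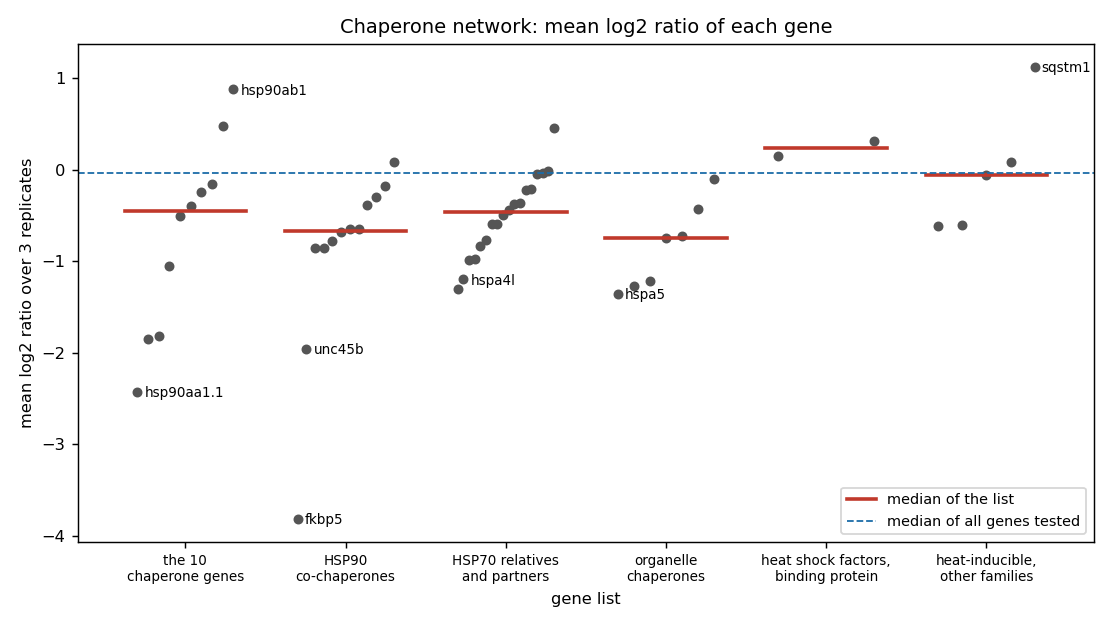
Mean log2 ratio over 3 replicates (vertical axis) of each measured gene in the 10 chaperone genes and 5 related lists (horizontal axis), sorted by value within a list. Red bars are list medians, from -0.74 for organelle chaperones to 0.23 for heat shock factors, and the dashed line is the median of all genes, -0.03.

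The genes whose values were most like those of the chaperones with the largest means were found by Euclidean distance over the 3 log2 ratios, among 5903 other genes. Nearest to hsp90aa1.2 were unc45b (distance 0.53), hspa4a (0.69) and cyb5b (0.70). Nearest to hsp90aa1.1 were abcf2a (1.53), mat1a (1.86) and cry3b (1.90), all farther off. The first 2 of these were negative in all 3 samples, at -4.06, -2.57 and -0.93 for abcf2a and at -5.58, -2.37 and -0.71 for mat1a. The gene cry3b read -2.79, -2.24 and 0.41, with the signs of hsp90aa1.1. With 3 samples these distances describe size and sign only.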

How the data were processed

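The authors deposited a single table with 1 log ratio per row and sample, taken here as a log2 ratio because the values are signed and centred near 0 (a natural logarithm was not excluded). Background correction, normalization, centring, the combination of dye swaps, the rule for missing rows and the numerator condition are unstated in the sources used. Rows were paired with probes by position on a grid of 266 by 170 spots. Probe symbols and gene IDs are those of the platform table, and the IDs of the 10 genes carry the same symbols in the RefSeq gene table (GRCz12tu), which was also used for neighbouring genes.

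Measured probes of a gene were averaged in each sample. The 5904 genes complete over the 3 samples and, separately, the 10200 complete rows were fitted with limma 3.58.1 in R 4.3.3 (lmFit, eBayes, intercept against 0, 2-sided, 2 residual and 4.58 prior degrees of freedom), with Benjamini-Hochberg adjustment. The fit was tested on simulated data. The chaperone genes and all lists were chosen with earlier results of these data known, so lists are described by counts and medians. Named are the 10 genes, the 4 list genes with the smallest limma p, the 3 nearest genes to the chaperones with the largest means, and cyp1a. Other list members, all paralogue pairs and the pair of hsp90aa1.2 with unc45b were named after their values were seen.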

Additional observations from a re-analysis of the deposited data

How the results depend on the processing

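For single genes, 12 settings were compared with the values given, among them median summary of probes, median centring, scaling, quantile normalization, array weights and each replicate left out. The sign of the mean held in all of them for 8 of the 10 genes. The exceptions were hspe1, at 0.0119 with array weights and from -0.438 to 0.174 with 1 replicate left out (positive without replicate 1), and hsp70l, from -0.795 to 0.0274 (positive without replicate 1). The cause was not tested. The number of genes past the adjusted threshold was 0 in all but 1 setting. Leaving out 1 replicate gave 0 to 2 genes (hsp90aa1.1 and hspa4a without replicate 3, where 20 of all 5963 genes passed). Of all 5904 genes, 45 passed with scaling, 40 with array weights and 28 with quantile normalization, beside 0 of the 10 in each. For single probes, leaving out 1 replicate gave 0 to 1. Without replicate 2 it was a hsp90ab1 probe, where 186 of 11852 rows passed. Without replicate 3 it was a hsp90aa1.1 probe, where 9 of 10335 rows passed. Of the 6 genes with the same sign throughout, 1 reached 1.5-fold in all samples and 0 reached 2-fold. The median over the 10 genes was between -0.70 (without replicate 3) and -0.22. The differences of the hsp90aa1 copies from hsp90ab1 kept their sign under each setting run for them, which left out array weights, the ordinary statistic and the filter on small ratios. Averaging only probes measured in all samples, and leaving replicates out of the fit of rows, were chosen after seeing the data. Turning all signs was run for the count of genes only, since it negates each value by construction. The search for heat shock elements in promoters was not run. No paired analysis was possible because the samples form 1 group and the exposed and control RNA are already paired on each array.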

Other observations

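The wider J-domain family was read after the values of the 10 genes were known. Of the 43 dnaj genes on the array, 23 had a value in all samples, and 12 of these were negative and 2 positive throughout, with a median log2 ratio of -0.49. Beside them, 23.1% and 19.7% of all genes were negative and positive throughout. These counts overlap with those above, since the family holds dnajb1b, dnaja3a of the organelle chaperones and several HSP70 partners. Of the 12 negative throughout, dnajc2, dnajb1a, dnaja2a, dnajb6b, dnajc7 and dnajb12a were already counted as HSP70 partners. The lowest mean was that of dnajc21, a ribosome biogenesis factor, at -1.92 ± 0.52 (SD, n = 3), followed by dnajb11, a partner of hspa5 in the endoplasmic reticulum, at -1.48 ± 0.98. The genes positive throughout were dnajc12, at 1.09, 0.98 and 0.16, and dnajc5aa, a cysteine string protein of synaptic vesicles, at 1.14, 0.23 and 0.26. None of the 23 passed an adjusted p of 0.05 in limma, and 9 negative genes and 1 positive gene had an unadjusted p under 0.05, beside 8.43% and 7.67% of all genes. In all, 29 dnaj genes had a value in some sample, and those with missing samples were left out of these counts. In replicates 1 and 3, dnajc17 read 0.55 and 0.68, dnajc19 0.23 and 0.27, dnajc28 0.71 and -0.18, and dnajc4 -0.11 and -1.22. The gene dnaja3b read 0.76 in replicate 1 only, and dnajc5gb 0.88 in replicate 3 only.

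A further HSP70 gene, hsc70, which was in none of the lists, had log2 ratios of -0.70, -1.34 and 0.84 from 1 probe.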
